A study of Rattus norvegicus with 18 samples.

Results

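The genes described here build, sulfate, carry or cut heparan sulfate and chondroitin sulfate. They were taken by symbol: every row of the count table whose symbol starts with Ndst, Hs2st, Hs3st, Hs6st, Ext, Extl, Sdc, Gpc, Sulf or Chst followed by a digit, together with any row for Glce, Hpse or Xylt1. Glce, the heparan sulfate epimerase gene, had no row in the count table. A row was kept when it had 10 or more counts in 3 or more libraries, so the members were selected on their name and on their counts in these libraries. Of 17455 symbols listed, 45 matched by name and 44 were kept. All 44 were among the 13338 genes tested. The set was picked with earlier results of these data in view, so no test is made of the set as a whole. The symbol that was dropped, Hs3st3a1, had 0 to 15 counts per library and reached 10 in 1 library. Just inside the limit, Hs3st3b1 had 0 to 18 counts and reached 10 in 7 libraries. These 2 genes encode closely related enzymes, so reads may have been split between them.

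The rats were Sprague-Dawley, adult and male, RNA was sequenced from the left hippocampus, and temporal lobe epilepsy was modelled in 2 ways, with kainic acid (KA) and by kindling (KI). The 3 KA 3 Class V libraries came from rats with implanted electrodes that received rising systemic doses of kainic acid, a glutamate receptor agonist, until status epilepticus. The KA sham group held 7 libraries, and the sources used here do not say what its rats received. The 4 KI 3 Class V libraries came from rats stimulated repeatedly through electrodes in the hippocampus until they were kindled. The KI sham group held 4 libraries, again with no further description. Tissue was taken 24 hours after the last seizure, and the sources do not define 3 Class V. The labels do not state that every library is a separate animal, so the spread behind the p-values may be technical in part.

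Heparan sulfate and chondroitin sulfate are long sugar chains attached to core proteins of the cell surface and matrix. After a xylose-based linker is laid down, the chains are polymerised in the Golgi and sulfated at chosen positions, and the pattern of sulfates sets which growth factors, guidance cues and synaptic adhesion proteins bind. In the brain, heparan sulfate on glypicans and syndecans takes part in synapse formation, and chondroitin sulfate is a main component of perineuronal nets.

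The promoters of 5 genes that passed a test in the kindling comparison or in the comparison between models are shown so that they can be set beside the expression values. They are the 250 bases before the annotated start in RefSeq for assembly GRCr8, read 5′ to 3′ on the gene's own strand, and capitals mark matches to the motifs named after them. Ndst3, Chst9 and Sdc1 are not shown.
Ndst4 (chr2:216461293-216461542, plus strand): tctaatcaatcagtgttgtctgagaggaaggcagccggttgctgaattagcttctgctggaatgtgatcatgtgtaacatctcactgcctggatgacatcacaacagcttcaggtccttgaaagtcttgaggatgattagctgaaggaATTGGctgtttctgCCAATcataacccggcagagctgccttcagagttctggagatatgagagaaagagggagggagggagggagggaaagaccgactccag
Hs6st3 (chr15:102688170-102688419, plus strand): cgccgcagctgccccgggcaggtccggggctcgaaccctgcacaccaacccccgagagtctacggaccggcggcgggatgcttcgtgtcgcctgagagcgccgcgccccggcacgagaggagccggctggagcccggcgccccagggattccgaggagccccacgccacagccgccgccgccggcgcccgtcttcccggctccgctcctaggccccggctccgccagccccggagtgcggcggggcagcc
Chst15 (chr1:196491184-196491433, minus strand): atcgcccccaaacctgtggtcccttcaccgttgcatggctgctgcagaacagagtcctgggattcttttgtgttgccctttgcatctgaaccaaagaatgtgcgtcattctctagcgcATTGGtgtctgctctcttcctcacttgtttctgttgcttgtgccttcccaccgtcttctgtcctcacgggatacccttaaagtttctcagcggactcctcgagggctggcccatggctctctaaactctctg
Gpc3 (chrX:137157599-137157848, minus strand): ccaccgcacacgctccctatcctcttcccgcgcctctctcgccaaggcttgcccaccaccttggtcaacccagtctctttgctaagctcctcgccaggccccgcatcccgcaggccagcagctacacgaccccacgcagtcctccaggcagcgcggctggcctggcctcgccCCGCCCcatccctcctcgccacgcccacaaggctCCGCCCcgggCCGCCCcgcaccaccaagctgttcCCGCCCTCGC
Sdc4 (chr3:173592924-173593173, minus strand): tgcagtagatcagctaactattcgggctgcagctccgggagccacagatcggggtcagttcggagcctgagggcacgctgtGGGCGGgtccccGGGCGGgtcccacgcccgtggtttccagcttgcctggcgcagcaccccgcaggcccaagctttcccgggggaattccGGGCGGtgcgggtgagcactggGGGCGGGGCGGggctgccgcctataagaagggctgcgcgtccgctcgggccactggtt

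The 7 motifs searched, on both strands and over the 250 bases before and 50 after the start, were the cyclic AMP response element TGACGTCA, the AP-1 site TGANTCA, the EGR site GCGNGGGCG, the GC box with the letters GGGCGG, the TATAAA box, the E-box with the letters CACGTG and the CCAAT box, and matches to the EGR motif and the GC box can overlap. Of the 44 genes, 35 had an entry among the promoters. Ndst4 held 2 CCAAT boxes, 102 and 88 bases before the start, and Chst15 held 1, while Hs6st3 held no match to any of the 7. Gpc3 held 4 GC boxes and 1 EGR match that overlaps the nearest of them, and Sdc4 held 5 GC boxes. GC boxes were present in 65.7% of the 35 promoters, against 33.1% of all 33469 promoters, and CCAAT boxes in 31.4% of the 35, against 37.5% of all. By the same comparison the cyclic AMP response element was found in 2.86% against 1.83%, AP-1 in 2.86% against 7.33%, EGR in 8.57% against 4.98%, the TATAAA box in 2.86% against 14.2%, and the E-box in 0% against 6.42%. The median promoter of the set held 24 CpG and 65.3% G+C, against 7 CpG and 51.7% over all promoters, but Ndst4 held 4 CpG and Chst15 held 8, against 40 in Hs6st3. The 35 promoters were 1 per gene, from genes kept on their counts, while the 33469 were not limited to genes tested here. The sets compared are therefore unlike, and the part of this in the shares was not tested. A match describes the letters of the window and is not evidence of binding.

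Libraries held 37172455 to 49943021 counts (KA 3 Class V), 32150130 to 42619628 (KA sham), 36117956 to 41195373 (KI 3 Class V) and 30925368 to 38850420 (KI sham). Levels are given as CPM, counts scaled to library size. Neuronal markers summed to 2286 CPM or more in every library. KI sham 1 and KA sham 2 stood apart. KI sham 1 was the lowest of the 18 libraries for 34.09% of the 44 genes and 24.58% of all genes tested, and KA sham 2 for 29.55% of the 44 and 14.74% of all. Blood markers were highest in these libraries, with a summed level of 4205 CPM for KA sham 2 and 2071 CPM for KI sham 1, and KI 3 Class V 1 was the highest for 27.27% of the 44 and 9.784% of all. KI sham 4 had choroid plexus markers at 960.1 CPM in sum and meningeal markers at 627.9 CPM, above the other KI shams, and KA sham 3 had choroid plexus markers at 615.7 CPM. Genes of ribosomal RNA type took up 16.32% of all reads of KI 3 Class V 1, 16.41% of KI sham 2 and 9.666% of KA sham 4, against at most 2% elsewhere. In tissue RNA, fewer cells of a type and less RNA per cell cannot be told apart.

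**Figure D1:**
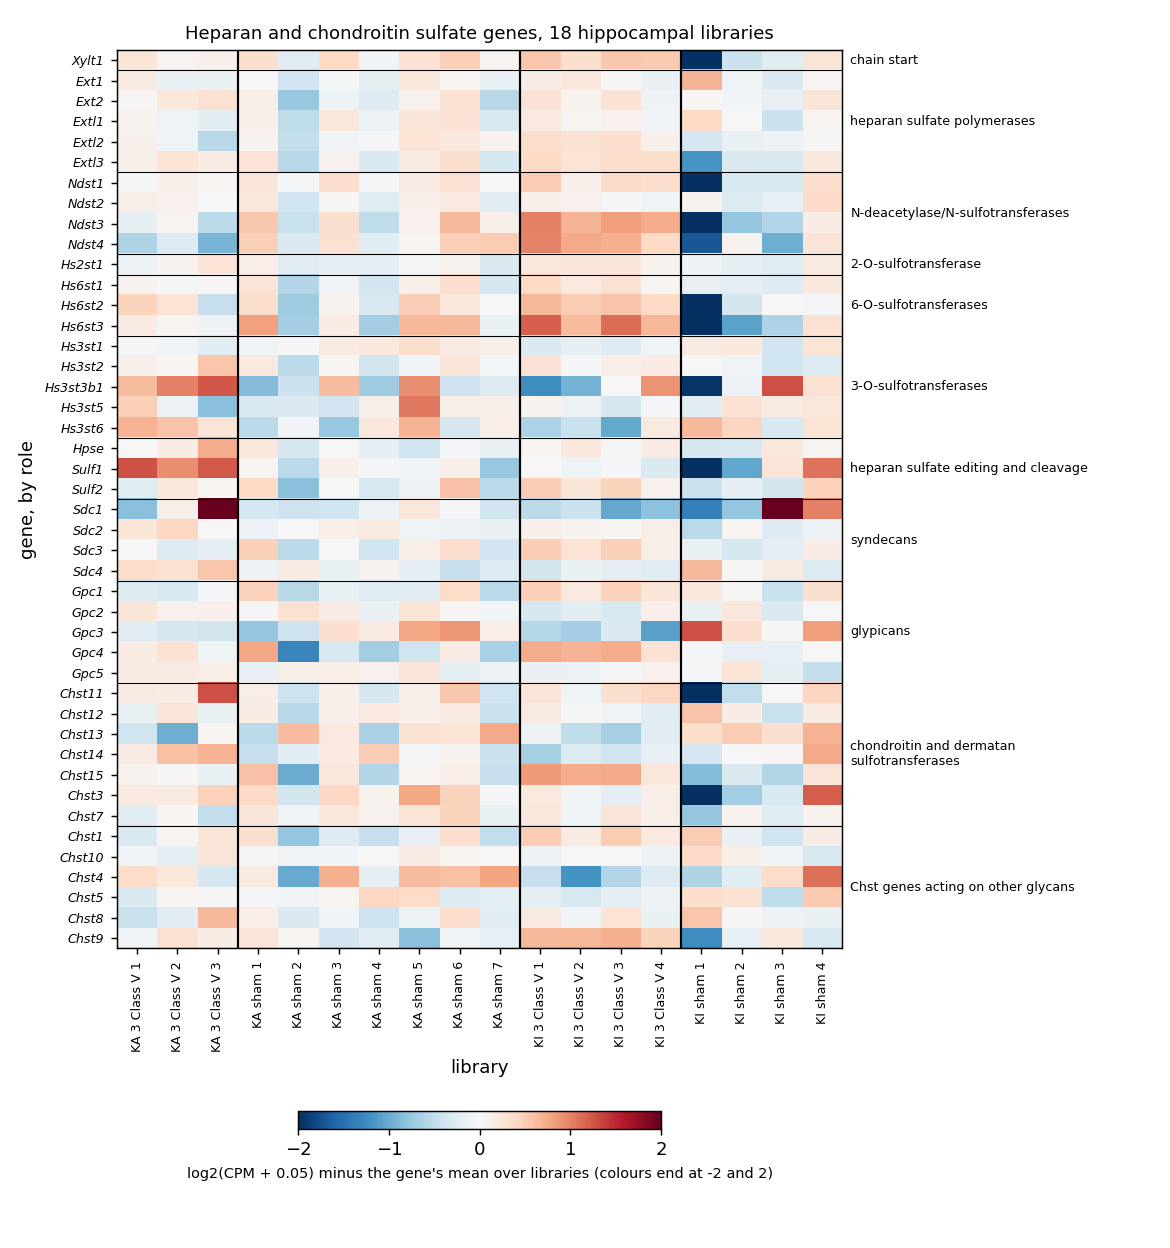
Relative level of the 44 genes (rows, by role) in the 18 libraries (columns, by group), as log2(CPM + 0.05) relative to the mean of its row, red above it and blue below. KI sham 1 is the darkest blue column for Xylt1, Ndst1, Ndst3, Hs6st2 and Hs6st3, and the 4 KI 3 Class V columns are red for Ndst3, Ndst4 and Hs6st3.

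In the fit of all 18 libraries, mRNA for several enzymes that sulfate these chains was higher in kindled hippocampus. Which genes passed depended on the fit. Compared with KI sham, 6 of the 44 genes passed the test in KI 3 Class V (edgeR quasi-likelihood, adjusted p under 0.05), 13.6% against 9.99% of all genes tested. The 5 that rose were Ndst3, Ndst4, Hs6st3, Chst15 and Chst9, 11.4% of the set against 4.74% of all genes. The gene that fell was Gpc3, 2.27% against 5.25%. The median log2 change over the 44 was 0.15, with 26 genes above 0, against a median of -0.04 over all genes tested. Some of these values chose or informed the set, so they describe it and do not test it. The share called was not above the background with every tool. With DESeq2 it was below it, 20.5% against 22.3% of all genes, and with limma-voom slightly above it, 56.8% against 55.1%. With the KI libraries fitted alone only Chst15 (edgeR adjusted p = 0.0498) and Gpc3 (0.0398) of the 6 passed, and Gpc4 (0.024) in addition, 7.14% of the set against 5.85% of all genes. Ndst3 (edgeR adjusted p = 0.0543), Ndst4 (0.0941), Hs6st3 (0.0908) and Chst9 (0.0649) lost their calls in that fit, with log2 changes of 1.46, 1.13, 1.62 and 0.92.

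The N-deacetylase/N-sulfotransferases remove acetyl groups from heparan sulfate and put sulfate in their place, the step on which most later sulfation depends. Ndst3 had 11.2, 8.92, 9.99 and 9.36 CPM in the 4 KI 3 Class V libraries, against 1.21, 3.25, 3.69 and 6.21 CPM in the 4 KI shams. Every kindled library lay above every sham, and the lowest sham was KI sham 1. The fold was 2.73 (log2 change 1.45, SE 0.35, edgeR adjusted p = 0.0289). Ndst4 had 17.8, 15.2, 14.6 and 11.8 CPM in KI 3 Class V, against 2.70, 9.37, 4.52 and 10.7 CPM in KI sham. The groups did not overlap, although KI 3 Class V 4 and KI sham 4 lay close together. Its log2 change was 1.12 (SE 0.32, edgeR adjusted p = 0.0425), a fold of 2.17. The other members of the family did not pass: Ndst1 had a log2 change of 0.70 (SE 0.31, edgeR adjusted p = 0.116) and averaged 75.6 ± 8.81 CPM in KI 3 Class V and 46.6 ± 25.9 CPM in KI sham (SD, n = 4 each), with KI sham 1 at 13.1 CPM. Ndst2 differed by less than 0.01 on the log2 scale, at 38.5 ± 2.47 CPM in KI 3 Class V and 38.5 ± 7.87 CPM in KI sham.

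The 6-O-sulfotransferases add sulfate to glucosamine, a mark that fibroblast growth factor signalling depends on. Hs6st3 had 34.9, 23.6, 33.2 and 24.0 CPM in KI 3 Class V, against 1.70, 7.21, 9.93 and 18.8 CPM in KI sham. All kindled libraries exceeded all shams, and KI sham 1 was again the lowest. The fold of 3.05 (log2 change 1.61, SE 0.48) passed the test at an edgeR adjusted p of 0.0443. Hs6st3 was already known from earlier results when the genes were named, so this p-value is not independent support. Hs6st2 had 21.1 to 25.4 CPM in KI 3 Class V and 3.70 to 15.8 CPM in KI sham, and the groups did not overlap. Its log2 change of 0.97 (SE 0.33) missed the threshold at an edgeR adjusted p of 0.0625. Hs6st1 averaged 49.0 ± 4.97 CPM in KI 3 Class V and 38.8 ± 6.002 CPM in KI sham, a log2 change of 0.34 (SE 0.18, edgeR adjusted p = 0.174).

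Among the sulfotransferases that act on chondroitin, 1 of 7 passed, where 9.99% of all genes did. Chst15 adds a further sulfate to chondroitin that is already sulfated, which makes the highly charged form known as chondroitin sulfate E. It had 21.9, 20.2, 20.5 and 14.2 CPM in KI 3 Class V, against 6.64, 9.88, 8.09 and 14.5 CPM in KI sham. The groups overlapped, because KI sham 4 lay above KI 3 Class V 4. The log2 change was 0.97 (SE 0.29, edgeR adjusted p = 0.0449). Chst11, which starts sulfation of chondroitin at its commonest position, had a log2 change of 0.53 (SE 0.38), and Chst12, a second enzyme for that position, one of -0.18 (SE 0.20). Chst13, of the same activity and with 6 to 25 counts per library, had 0.197 to 0.315 CPM in KI 3 Class V and 0.442 to 0.585 CPM in KI sham. Those groups did not overlap, but the log2 change of -0.96 (SE 0.35) did not pass (edgeR adjusted p = 0.0727). Chst14, which sulfates dermatan, stood at -0.54 (SE 0.25, edgeR adjusted p = 0.133), and the chondroitin 6-O-sulfotransferases Chst3 and Chst7 stood at 0.05 (SE 0.49) and 0.31 (SE 0.18).

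The name rule also takes Chst genes whose main substrates are other glycans, and 1 of these 6 passed, where 9.99% of all genes did. Chst9, which sulfates N-acetylgalactosamine on glycoproteins, had 13.2, 13.4, 13.9 and 11.5 CPM in KI 3 Class V, against 3.53, 7.56, 9.73 and 6.81 CPM in KI sham. The kindled libraries lay within a narrow range above all shams. Its log2 change was 0.91 (SE 0.24, edgeR adjusted p = 0.0362).

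Glypicans carry heparan sulfate on a lipid anchor. Gpc3, known as a regulator of Hedgehog signalling and body growth, had 3.31, 3.03, 3.998 and 2.29 CPM in KI 3 Class V, against 11.9, 6.25, 4.99 and 8.83 CPM in KI sham. All kindled libraries lay below all shams, and the highest value was in KI sham 1. The log2 change was -1.34 (SE 0.33, edgeR adjusted p = 0.0312). Gpc4, released by astrocytes as a signal for synapse formation, had 41.1 to 56.0 CPM in KI 3 Class V and 29.9 to 33.8 CPM in KI sham. Those groups did not overlap, but the log2 change of 0.72 (SE 0.30) did not pass (edgeR adjusted p = 0.105). Gpc1, Gpc2 and Gpc5 had log2 changes of 0.29, -0.15 and 0.03.

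No chain-building gene passed in KI. Xylt1, which attaches the xylose that starts the linker for both kinds of chain, had 74.4, 63.8, 74.8 and 73.4 CPM in KI 3 Class V, against 5.60, 38.2, 44.1 and 61.3 CPM in KI sham. The groups did not overlap, and KI sham 1 was far below the other shams. The log2 change was 0.94 (SE 0.40, edgeR adjusted p = 0.107). Extl3, which adds the first sugar specific to heparan sulfate, had a log2 change of 0.65 (SE 0.23, edgeR adjusted p = 0.0667) and no overlap, at 83.9 to 91.7 CPM in KI 3 Class V and 30.6 to 81.0 CPM in KI sham. The chain polymerase subunits Ext1 and Ext2 had log2 changes of -0.07 (SE 0.18) and 0.12 (SE 0.19). Hs2st1, which sulfates the uronic acid of heparan sulfate, stood at 0.27 (SE 0.12, edgeR adjusted p = 0.124), and among the 3-O-sulfotransferases Hs3st2 stood at 0.33 (SE 0.17, edgeR adjusted p = 0.177). Across the set, 9 genes lay higher without overlap, 20.5% against 12.1% of all genes, and 2 lay lower, 4.55% against 8.07%. At an unadjusted p under 0.05 there were 14 higher genes, 31.8% against 17.2% of all, and 6 lower, 13.6% against 18.2%.

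**Figure D2:**
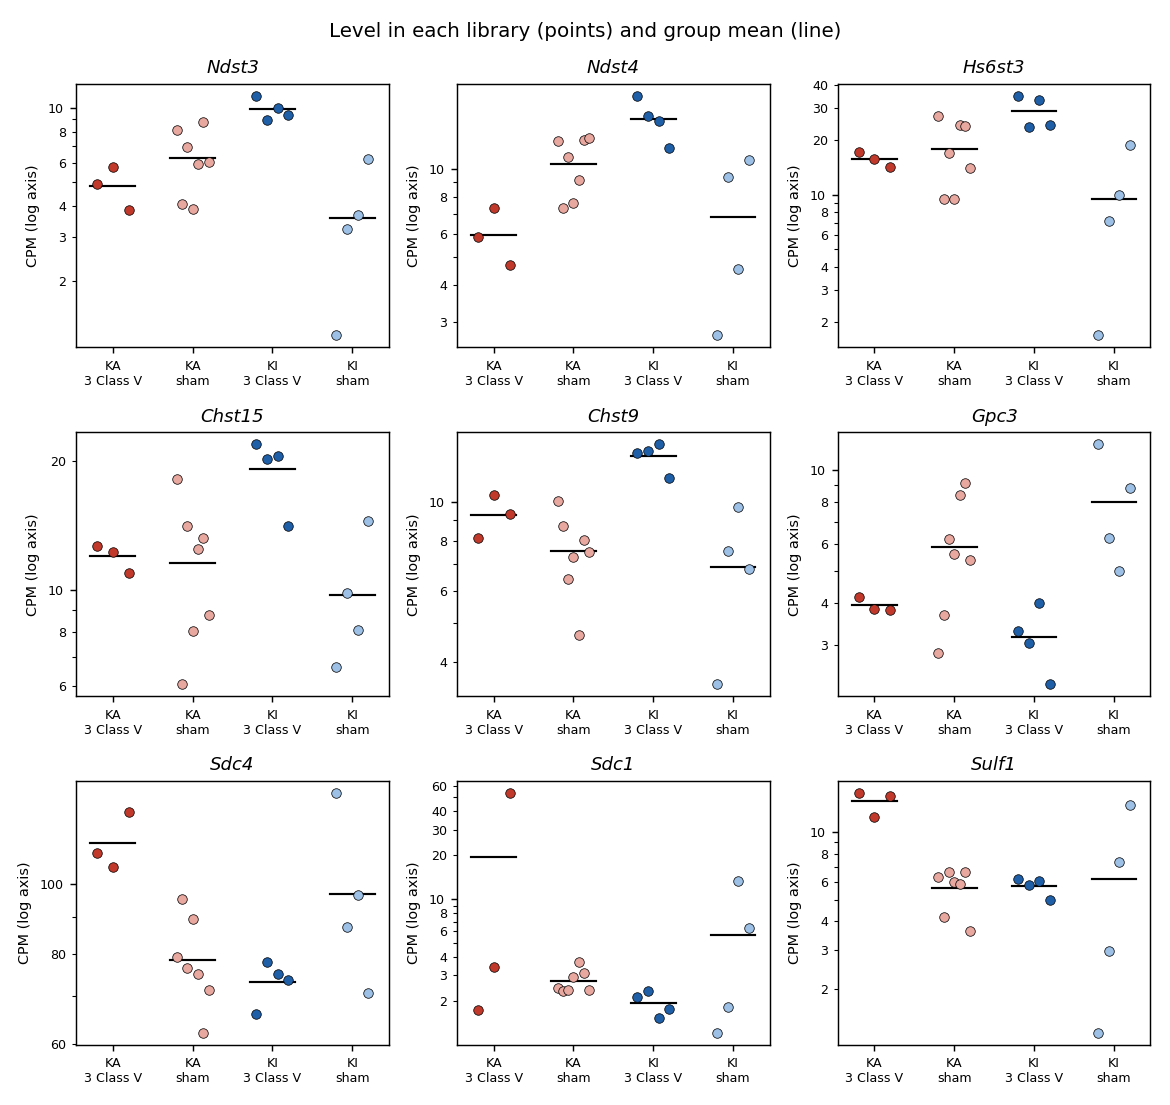
CPM on log axes of 9 genes in every library (points) with group means (lines), for KA 3 Class V, KA sham, KI 3 Class V and KI sham. In KI, Ndst3, Ndst4, Hs6st3 and Chst9 lie above sham without overlap and Gpc3 lies below, while in KA only Sdc4 and Sulf1 of these 9 separate 3 Class V from sham.

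The kindling calls depended on which libraries were in the fit. Leaving out KI 3 Class V 1, 2 or 3 ended all 6, and in each case 9 genes passed in the whole table. Without KI 3 Class V 4 the call of Ndst3 remained, without KI sham 2 that of Gpc3, and without KI sham 3 those of Chst9 and Gpc3. Without KI sham 1 the calls of Ndst3 (log2 change 1.17, edgeR adjusted p = 0.0241), Hs6st3 (1.27, 0.0494) and Chst9 (0.69, 0.0455) remained, and Xylt1 passed at 0.58 (0.0474). Ndst4 then stood at 0.85 (edgeR adjusted p = 0.0628), Chst15 at 0.83 (0.09) and Gpc3 at -1.09 (0.0507). Leaving out KI sham 4 gave 12 calls, the same 6 and 6 more, which was 27.3% of the set against 32.3% of all genes in that fit. Leaving out KA sham 2 gave 9, the same 6 with Extl2, Extl3 and Hs6st2, or 20.5% against 18.3%. Chst15, Hs6st3 and Ndst4 lost their calls without KA 3 Class V 1, KA 3 Class V 2 or KA sham 3, Chst15 and Hs6st3 also without KA 3 Class V 3 or KA sham 7, and Chst15 without KA sham 5, although these libraries belong to neither KI group. Over the 18 fits that each left out 1 library, the log2 change ran from 1.17 to 1.82 for Ndst3, from 0.85 to 1.39 for Ndst4, from 1.27 to 2.16 for Hs6st3, from 0.83 to 1.19 for Chst15, from 0.69 to 1.12 for Chst9 and from -1.52 to -1.09 for Gpc3. The largest edgeR adjusted p among those fits lay between 0.0992 and 0.122 for the 6 genes.

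**Figure D3:**
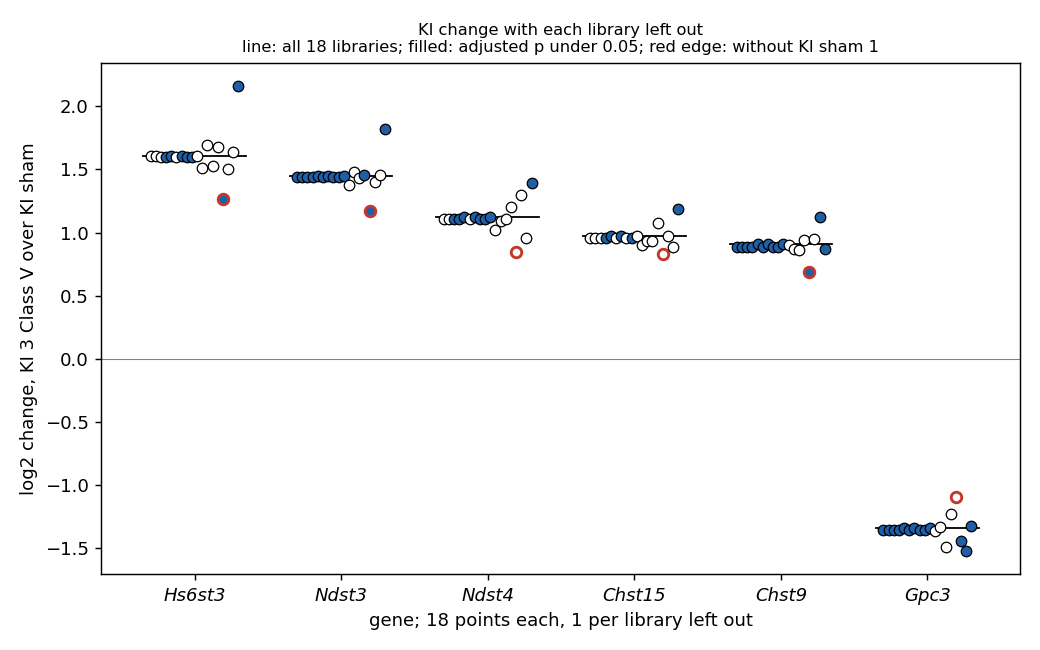
Log2 change in KI 3 Class V over KI sham for the 6 genes that passed (groups of 18 points), each point a fit without 1 library; filled points have an adjusted p under 0.05 and the red edge marks the fit without KI sham 1. Every point keeps the direction of the full fit (line), with the smallest absolute change without KI sham 1 for all 6 genes, and open points occur for every gene.

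Other measures moved with the kindling comparison. The mean score of ribosomal protein genes, in log2 units around each gene's mean, was -0.38 ± 0.13 in KI 3 Class V and 0.25 ± 0.44 in KI sham (SD, n = 4 each). KI sham 1 had the highest score of the KI libraries, 0.69, and KI sham 4 had -0.34, within the kindled range. With this score as a covariate 0 of the 44 genes passed in KI, where 0.787% of all genes did (edgeR). Hs6st3 then had a log2 change of 0.94 (edgeR adjusted p = 0.129), Ndst3 of 0.95 (0.0676), Ndst4 of 0.73 (0.172), Chst15 of 0.37 (0.123), Chst9 of 0.88 (0.106) and Gpc3 of -1.59 (0.0539). Without KI 3 Class V 1, KI sham 2 and KA sham 4, the libraries rich in ribosomal RNA, the count of calls was also 0, where 0.128% of all genes passed. Neuronal markers summed to 4149 to 4865 CPM in KI 3 Class V and 2286 to 3903 CPM in KI sham, and 1 of 6, Syt1, rose. Interneuron markers summed to 598.3 to 648.3 CPM in KI 3 Class V and 341.6 to 592.2 CPM in KI sham. Of these 5 markers 1, Gad2, rose (1.58), with 3 changes above 0 and 2 below. Oligodendrocyte markers summed to 8863 to 12630 CPM in KI 3 Class V and 14430 to 19310 CPM in KI sham, with 0 of 5 called. Neurons, interneurons and oligodendrocytes thus separated the groups without overlap in summed level, as did microglia. As a mean log2 level around each gene's mean, oligodendrocyte markers overlapped, at -0.22 in KI 3 Class V 4 and -0.25 in KI sham 3. Microglial markers summed to 264.9 to 278.1 CPM in KI 3 Class V and 304.4 to 627.8 CPM in KI sham, and 3 of 6 fell, Aif1, Tmem119 and Trem2. Meningeal markers summed to 79.21 to 165.7 CPM in KI 3 Class V and 124.9 to 627.9 CPM in KI sham, and 1 of 6, Igf2, fell. In the other lists, 1 of 6 astrocyte markers, Aqp4, rose (0.61), with 4 changes above 0 and 2 below. Among 4 oligodendrocyte precursor markers 1, Olig1, fell (-0.48), with 2 changes above 0 and 2 below. Of 6 endothelial and pericyte markers 1, Cldn5, fell (-0.53), although 4 changes were above 0 and 2 below. All 5 choroid plexus markers (median log2 change -1.95) and all 3 blood markers (-1.21) were below 0, with 0 called. Summed levels of each of these lists overlapped between the groups. The part of these cell markers in the results was not tested.

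After kainic acid none of the 44 genes passed, where 0.172% of all genes did (23 genes, all higher). At an unadjusted p under 0.05, 5 genes were higher, 11.4% against 6.34% of all, and 1 was lower, 2.27% against 3.59%. DESeq2 called 1, Sdc1, which is 2.27% against 1.91% of all genes, and limma-voom called 3, Ndst4, Sdc4 and Sulf1, 6.82% against 5.44%. The median log2 change was 0.06, against -0.01 over all genes tested. In 2 genes KA 3 Class V lay above KA sham without overlap, 4.55% against 2.95% of all genes, and in 0 genes below, against 2.70%.

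Sulf1 is an extracellular enzyme that removes 6-O-sulfates from finished heparan sulfate. It had 14.8, 11.7 and 14.5 CPM in KA 3 Class V, against a lowest value of 3.62, a median of 5.97 and a highest of 6.64 CPM in KA sham. The groups were far apart, but the log2 change of 1.28 (SE 0.40) missed the threshold (edgeR adjusted p = 0.204). Without KI sham 1, a library outside the comparison, it passed at 0.0473. It also passed with the KA libraries fitted alone and without KI sham 3 and 4. Sulf2, its close relative, averaged 223 ± 35.4 CPM in KA 3 Class V (SD, n = 3) and 214 ± 74.1 CPM in KA sham (SD, n = 7), a log2 change of 0.06 (SE 0.26). Hpse, heparanase, which cuts heparan sulfate chains, had a log2 change of 0.45 (SE 0.18, edgeR adjusted p = 0.37). In KI, Sulf1 had 6.17, 5.79, 6.05 and 4.98 CPM in KI 3 Class V, against 1.28, 2.97, 7.37 and 13.1 CPM in KI sham. The kindled values fell inside the wide sham range, with a log2 change of -0.12 (SE 0.43, edgeR adjusted p = 0.857). Leaving out KI sham 3 and 4, the KI shams with the highest Sulf1, turned that change to 1.41 (edgeR adjusted p = 0.009). Only KI sham 1, which stood apart from most libraries, and KI sham 2 then remained as controls.

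Syndecans are heparan sulfate proteoglycans that span the membrane. Sdc4, a partner of integrins at adhesion sites, had 110, 105 and 126 CPM in KA 3 Class V, against a lowest value of 62.2, a median of 76.6 and a highest of 95.2 CPM in KA sham. All KA 3 Class V libraries lay above all KA shams. The log2 change of 0.54 (SE 0.15) did not pass (edgeR adjusted p = 0.16), but did without KI sham 1 (0.049) and with a covariate for the ribosomal protein score (0.59, edgeR adjusted p = 0.0155). Sdc1, a syndecan best known from epithelia and plasma cells, had 1.75, 3.44 and 53.3 CPM in KA 3 Class V, against 2.36 to 3.71 CPM in KA sham. A single library, KA 3 Class V 3, carried the high value. The log2 change was 2.82 (SE 0.71, edgeR adjusted p = 0.109) with that library and -0.09 without it, and it passed at 3.36 (edgeR adjusted p = 0.0373) without KA 3 Class V 1. Sdc2 and Sdc3 had log2 changes of 0.24 (SE 0.12) and -0.14 (SE 0.20).

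No other gene passed in KA either. Ndst4 had 5.83, 7.33 and 4.67 CPM in KA 3 Class V, against a lowest value of 7.31, a median of 11 and a highest of 12.7 CPM in KA sham. The groups met at the edge, KA 3 Class V 2 lying just above KA sham 2. The log2 change was -0.80 (SE 0.33, edgeR adjusted p = 0.375). Ndst3 had a log2 change of -0.37 (SE 0.34), Hs6st3 of -0.19 (SE 0.46), Xylt1 of -0.06 (SE 0.39), Chst15 of 0.05 (SE 0.28), Chst9 of 0.30 (SE 0.23), Ext2 of 0.30 (SE 0.18) and Gpc3 of -0.58 (SE 0.32). Chst11 had 30.8, 30.2 and 66.7 CPM in KA 3 Class V, against 20.6 to 39.7 CPM in KA sham, a log2 change of 0.64 (SE 0.36, edgeR adjusted p = 0.596) in which KA 3 Class V 3 was again the highest library. The 3-O-sulfotransferase gene Hs3st3b1 was listed with 0 counts in KI sham 1, which allows up to 0.104 CPM, and its log2 change in KA was 1.17 (SE 0.64, edgeR adjusted p = 0.579). Astrocyte markers summed to 10670 to 13010 CPM in KA 3 Class V and 4659 to 8435 CPM in KA sham, and 1 of 6, Gfap, rose. Microglial markers summed to 544.8 to 752.2 CPM in KA 3 Class V and 266.8 to 622.5 CPM in KA sham, with 0 of 6 called. Neuronal markers summed to 3292 to 3476 CPM in KA 3 Class V and 3929 to 4892 CPM in KA sham, without overlap and with 0 of 6 called. The separation held for the sum only, in which abundant markers weigh most. As a mean log2 level around each gene's mean, these markers had -0.13 to -0.01 in KA 3 Class V. That lay inside the KA sham range of -0.45 to 0.38, and 2 of the 6 changes were above 0. All 5 oligodendrocyte markers (median log2 change -0.72), all 5 choroid plexus markers (-0.32) and all 3 blood markers (-1.80) were below 0, with 0 called. The part of these cell markers in the values of Sdc4, Sulf1, Ndst3 and Ndst4 was not tested.

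**Figure D4:**
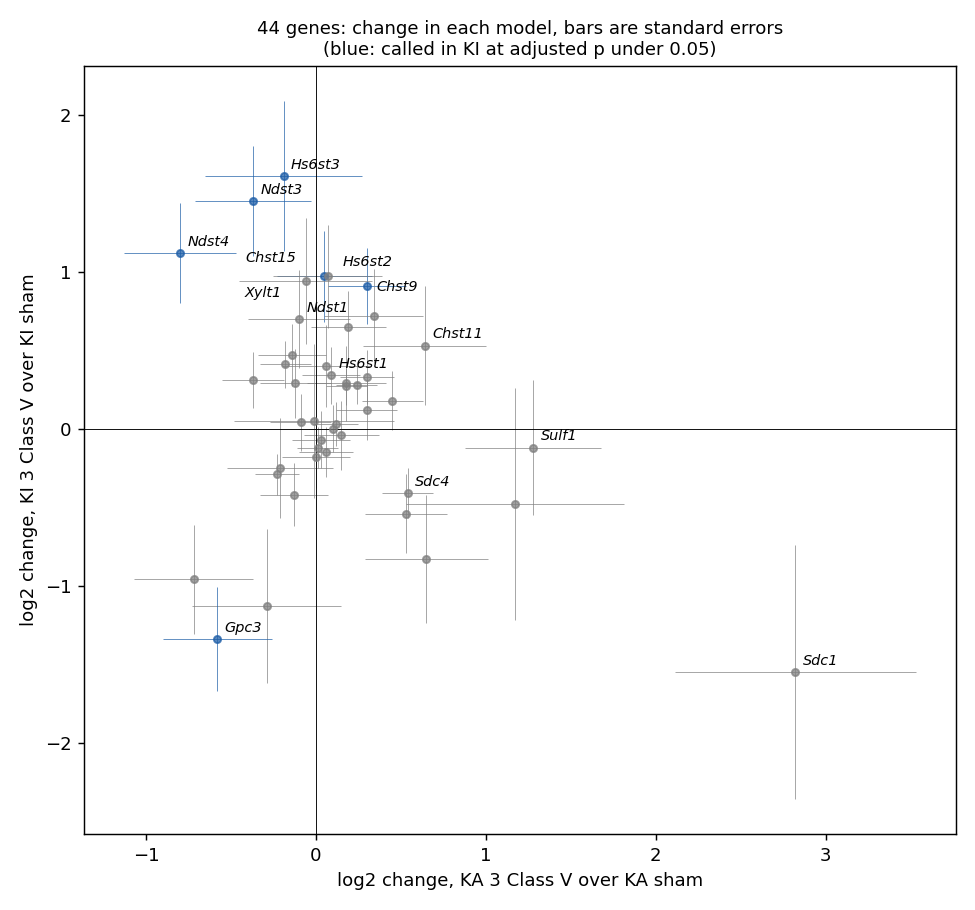
Log2 change of the 44 genes after kainic acid (KA 3 Class V over KA sham, horizontal) and after kindling (KI 3 Class V over KI sham, vertical) with standard errors; blue points passed in KI. Hs6st3, Ndst3 and Ndst4 lie above 0 in KI and below 0 in KA, and Sdc1 and Sdc4 lie above 0 in KA and below 0 in KI.

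The models were compared directly by testing the KA change minus the KI change, in which they share no control library. It passed for 4 of the 44 genes, 9.09% against 3.80% of all genes tested (edgeR). Ndst3 and Ndst4 were lower, 4.55% of the set against 0.652% of all genes, and Sdc1 and Sdc4 were higher, 4.55% against 3.15%. At an unadjusted p under 0.05, 7 were lower, 15.9% against 9.17% of all genes, and 5 were higher, 11.4% against 11.4%. Set directly side by side, KA 3 Class V lay below KI 3 Class V without overlap for 11 genes, 25.0% against 17.9% of all, and above it for 5, 11.4% against 16.5%. For Ndst4 the log2 change was -0.80 in KA and 1.12 in KI, a difference of -1.92 (SE 0.46, edgeR adjusted p = 0.0297). For Ndst3 it was -0.37 in KA and 1.45 in KI, a difference of -1.81 (SE 0.49, edgeR adjusted p = 0.0457). Hs6st3 differed by a like amount, -1.80 (SE 0.66), but did not pass (edgeR adjusted p = 0.141) unless KI sham 4 was left out (-2.34, 0.0405). Chst15 differed by -0.92 (SE 0.40, edgeR adjusted p = 0.211) and Sulf1 by 1.40 (SE 0.60, edgeR adjusted p = 0.195), or by 1.73 (0.0248) without KI sham 1.

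Sdc4 changed by 0.54 in KA and by -0.41 in KI, a difference of 0.94 (SE 0.22, edgeR adjusted p = 0.0293), although neither model passed alone. In KI it had 66.1, 77.9, 74.97 and 73.6 CPM in KI 3 Class V, against 133, 87.1, 96.4 and 70.7 CPM in KI sham. KI sham 1 was the highest and KI sham 4 overlapped the kindled libraries. Sdc1 differed by 4.37 (SE 1.10, edgeR adjusted p = 0.0356), with 2.14, 2.33, 1.52 and 1.77 CPM in KI 3 Class V against 1.21, 1.82, 13.3 and 6.37 CPM in KI sham. That difference rested on single libraries: it was 1.48 (edgeR adjusted p = 0.391) without KA 3 Class V 3. Ndst3 lost its call in 14 of the 18 fits that left out 1 library, those without any KA 3 Class V or KI 3 Class V library, KA sham 1, 3, 5, 6 or 7, or KI sham 2 or 3, with values from -2.19 to -1.53. Sdc1 lost it in 10, without KA 3 Class V 3, KA sham 1, 3, 6 or 7, any KI 3 Class V library or KI sham 3, with values from 1.48 to 4.94. Ndst4 lost it in 7, without any KA 3 Class V library, KI 3 Class V 1, 2 or 3, or KI sham 3 (-2.20 to -1.66). Sdc4 lost it in 7, without KA 3 Class V 2 or 3, any KI 3 Class V library or KI sham 3 (0.75 to 1.09). With the score of ribosomal protein genes as covariate all 4 passed, along with Chst14, Ext2 and Sulf1, 15.9% of the set against 7.68% of all genes.

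The shams of the models were also compared. For KA sham against KI sham, 0 of the 44 genes passed, where 0.00750% of all genes did (1 gene). At an unadjusted p under 0.05, 3 were higher, Chst7, Hs6st3 and Ndst3, against 4.05% of all genes, and 1 was lower, Sdc4, against 4.58%. These are 6.82% and 2.27% of the set. DESeq2 gave an adjusted p to only 17 of the 44 and called 0 of them, against 0.179% of the 5574 genes given one. With limma-voom 4 of the 44 were called, 9.09% against 3.08% of all genes. No gene of the set separated the shams without overlap. Hs6st3 averaged 17.8 ± 7.26 CPM in KA sham (SD, n = 7) and 9.41 ± 7.14 CPM in KI sham (SD, n = 4), and Ndst3 averaged 6.26 ± 1.85 CPM in KA sham and 3.59 ± 2.05 CPM in KI sham. Ndst4 averaged 10.4 ± 2.35 CPM in KA sham and 6.82 ± 3.82 CPM in KI sham.

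Of 75 other genes listed for these pathways, 65 were tested, and in KI 6 rose and 6 fell (edgeR), 9.23% each way against 4.74% and 5.25% of all genes. In KA 0 passed, against 0.172%. Among 15 genes for the linker and the sulfate donor, 2 rose in KI, 13.3% against 4.74% of all genes, and 1 fell, 6.67% against 5.25%. Fam20b, the kinase that phosphorylates the linker xylose, rose by 0.36 on the log2 scale (SE 0.10, adjusted p = 0.0381). Impad1, which clears the spent sulfate donor, rose by 0.44 (SE 0.13, adjusted p = 0.0436). Slc35b2, which carries the sulfate donor into the Golgi, had 37.2, 37.5, 40.3 and 42.8 CPM in KI 3 Class V, against 66.9, 51.7, 51.3 and 52.5 CPM in KI sham. It was lower in every kindled library than in any sham, with a log2 change of -0.49 (SE 0.10, adjusted p = 0.0221). Of 8 enzymes of the chondroitin and dermatan chain, 1 rose, 12.5% against 4.74% of all genes. It was the dermatan epimerase gene Dsel (0.57, SE 0.15, adjusted p = 0.0328). Of 6 chondroitin sulfate core proteins, 1 fell, 16.7% against 5.25% of all genes. It was Cspg5, neuroglycan C (-0.71, SE 0.17, adjusted p = 0.029).

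Proteins that bind heparan sulfate made up 23 of these genes. In KI 3 of the 23 rose, where 4.74% of all genes did, and 1 fell, 4.35% against 5.25% of all genes. Of the 23 changes, 20 were above 0 in KI. For KA sham against KI sham 19 were above 0, with 0 called. Ptprf, a receptor phosphatase of the LAR family that binds both chains, rose by 0.77 (SE 0.22, edgeR adjusted p = 0.041), and Lrrtm4, a synaptic partner of glypicans, rose by 0.68 (SE 0.19, edgeR adjusted p = 0.0417). Mdk, the secreted growth factor midkine, had 23.9, 23.2, 29.8 and 28.04 CPM in KI 3 Class V, against 61.7, 46.4, 44.2 and 55.6 CPM in KI sham, a log2 change of -0.98 (SE 0.18, edgeR adjusted p = 0.021). Of 11 genes listed for lysosomal breakdown of the chains, 3 fell in KI, 27.3% against 5.25% of all genes. Among them were Hexa, which removes terminal hexosamines, and Gusb, which encodes beta-glucuronidase. The list also holds genes whose products do not cut the chains, such as Sumf1 and Sumf2. Hexa had 58.1, 57.8, 57.0 and 56.3 CPM in KI 3 Class V, against 84.3, 81.1, 74.2 and 99.2 CPM in KI sham, and its log2 change was -0.56 (SE 0.15, edgeR adjusted p = 0.0333). In KA all 11 had a log2 change above 0, with a median of 0.40, but 0 passed. The KA change of Hexa was 0.65 (SE 0.14, edgeR adjusted p = 0.0659), and the KA minus KI difference passed for 4 of the 11, 36.4% against 3.15% of all genes, among them Hexa (1.21, SE 0.20, adjusted p = 0.0106), Gusb (1.48, SE 0.37, adjusted p = 0.0335) and Glb1. Lysosomal genes are abundant in microglia, and 3 of 6 microglial markers, Csf1r, Tmem119 (1.03) and Trem2 (2.40), differed between the models in the same direction. Their part in the lysosomal values was not tested.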

How the data were processed

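RNA was measured in 18 libraries, grouped by sample title. The deposited table holds raw read counts per gene symbol, which the authors made with FastQC, Trimmomatic, HISAT2, featureCounts and DESeq2 on build rn6, per the submitters' processing notes. Not given in the sources used here are annotation, strand setting and treatment of multi-mapping reads, so counts of overlapping or closely related genes are uncertain. Within groups, each of 36 library pairs differed by more than counting error allows (chi-square over its degrees of freedom, 20.44 to 602.6), and all libraries were kept as replicates.

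Counts were tested in R 4.3.3 with edgeR 4.0.16 (TMM factors, filterByExpr, robust quasi-likelihood F test, 18 libraries in 1 fit of group means, 14 residual degrees of freedom), two-sided, with Benjamini-Hochberg adjustment over 13338 genes and a threshold of 0.05. CPM used TMM factors. A standard error is the absolute log2 change over the square root of F. The procedure was also run on simulated counts, drawn independently with the spread fitted to these data. By design no library stood apart in them, so that run does not bear on how far calls rest on single libraries. Alternatives used DESeq2 1.42.0, limma 3.58.1 voom, other factors and filters, covariates and left-out libraries. Genes were named where they passed a test, had the largest change of their class in a model, lay nearest the expression limit, or sulfate chondroitin or are Hs6st genes, with up to 3 called genes of each other list. The other genes with values, such as Gpc4 and Sdc2, were chosen after their values were seen. The members and lists were chosen with earlier results of these data known. Promoters came from RefSeq (GRCr8), matched by symbol. Of the genes in the pathway lists, 1 is not reported here by name.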

Additional observations from a re-analysis of the deposited data

Results flagged for a closer look

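Results of 2 kinds stood out. One is a difference between the models, tested as the KA change minus the KI change with edgeR: Ndst3 at -1.81 (adjusted p = 0.0457), Ndst4 at -1.92 (0.0297), Sdc1 at 4.37 (0.0356) and Sdc4 at 0.94 (0.0293) on the log2 scale. The other is a library far from the others of its group. KI 3 Class V 4 had 76.0 CPM of Hs2st1, against 85.2 to 86.4 CPM in the other 3, and KI 3 Class V 2 had 63.8 CPM of Xylt1, against 73.4 to 74.8 CPM. Of 72 groups of values examined for the 24 named genes, 2 stood apart in this way, and chance alone gives about 1 in 20. KA 3 Class V, with 3 libraries, was too small to be examined, so its single high library for Sdc1 could not be flagged.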

How the results depend on the processing

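The number of the 44 genes that passed depended on the test, as did the share of all genes that passed, given in brackets. In KA it was 0 (0.172%), but 1 with DESeq2 (1.91%), with each model fitted alone (0.129%), with a covariate for the ribosomal protein score (1.54%) and without KI sham 3 and 4 (0.516%), and 3 with limma-voom (5.44%). In KI it was 6 (9.99%), but 25 with limma-voom (55.1%), 17 without KI sham 3 and 4 (3740 of 13381 genes), 3 with upper quartile factors (9.83%) and with each model fitted alone (5.85%), and 0 with the covariate (0.787%) and without the 3 libraries rich in ribosomal RNA (0.128%). For KA minus KI it was 4 (3.80%), but 16 with limma-voom (35.8%), 7 with the covariate (7.68%) and 1 without those 3 libraries (2.82%). Between the shams it was 0 (0.00750%), but 4 with limma-voom (3.08%) and without KI sham 3 and 4 (4.67%). With the replicate number as a block it was 0 in KI and 0 for KA minus KI, where 0 genes passed in KI in the whole table, and 0 in KA. Same-numbered libraries showed correlations of -0.17 to 0.01, so the numbers were not taken as pairing. Leaving out 1 library at a time gave 0 to 2 calls in KA, 0 to 12 in KI, 0 to 6 for KA minus KI and 0 to 0 between the shams, and median changes of -0.01 to 0.10 in KA and 0.12 to 0.27 in KI. Where a group was left with few libraries, the shared spread stood for it. The KI median was -0.05 with the covariate, against 0.15. No change that passed in the fit of all 18 libraries reversed its direction in these fits. Among those that had not passed, Sulf1 turned without KI sham 3 and 4, from -0.12 to 1.41 in KI. Between the shams it turned from -0.15 to 1.37 in that fit. It passed both times, but the KI shams with the highest Sulf1 had been removed and only KI sham 1 and 2 were left. Sdc1 in KA stood at -0.09 without KA 3 Class V 3, against 2.82. The causes were not tested. Genes with few counts, such as Hs3st3b1, are limited by depth.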
